A study of Homo sapiens with 3 samples.

Results

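Gene-desert H3K4me1 peaks were the peaks of the deposited H3K4me1 list that were shorter than 10000 bp, lay more than 100 kb from the span of any protein-coding gene, and overlapped no H3K4me3 peak. They numbered 5394 of 62087 H3K4me1 peaks (8.69%) and covered 8.04 Mb. Distances were measured to 19866 RefSeq protein-coding genes placed on the main chromosomes of GRCh38. Of the 62019 H3K4me1 peaks on those chromosomes, 5534 (8.92%) lay past 100 kb. The rule left out 69 of these for length alone, 63 for H3K4me3 overlap alone and 8 for both.

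Monomethylation of histone H3 at lysine 4 marks enhancers and the flanks of promoters, while trimethylation of the same residue marks the start sites of active genes. Gene deserts are long stretches between protein-coding genes. Some hold enhancers that act on a gene far away, and several regulators of T cell development and of leukaemia are known to be controlled in this manner, among them MYC, BCL11B and GATA3. Long noncoding RNA (lncRNA) genes are common in such stretches.

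The marks were mapped by chromatin immunoprecipitation and sequencing (ChIP-seq) in ALL-SIL, an established line of T-ALL, an acute leukaemia of T cell precursors, in which TLX1 is rearranged and NUP214 is fused to ABL1. The 3 samples, a ChIP of each mark (H3K4me1 and H3K4me3) and input DNA, were all from untreated cells of this 1 line and had 1 library each. After filtering, the libraries held 34813455 tags for H3K4me1, 30823016 for H3K4me3 and 18859011 for the input. With 1 library per mark, no value below has a replicate error and no test between groups of peaks was made, and intervals of shares are exact (Clopper-Pearson) 95% intervals that cover counting error only. As a check of lineage, which cannot identify the line itself, H3K4me3 lay over 8 of 12 T-lineage marker genes and 0 of 10 markers of other lineages. CD2, CD1A, CD1E and PTCRA were the T-lineage exceptions. These counts have no share over all genes beside them.

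Some gene-desert peaks lay over the annotated starts of noncoding genes, and a few of these sequences show what the peaks cover. Of the 666 lncRNA genes overlapped, 441 had a promoter window in the RefSeq table, which runs from 250 bases before to 50 bases after a gene's start. In all, 85 windows of 80 genes lay wholly inside a gene-desert peak. Below are 4 of them, chosen after their values were seen because they lie in stretches described further on. Capitals mark matches, on either strand, to the RUNX motif TGTGGT, the motif AGATAA of GATA factors, the ETS motif CCGGAA, the TCF/LEF motif CTTTGA, the E-box CAGCTG, which reads alike on both strands, and the TATA box motif TATAAA. Matches of different motifs could overlap and were counted separately. The window of LINC02914 (chr14:98711363-98711662, plus strand, GRCh38.p14, 42.7% G and C) lay in a peak with a pileup of 12.42, between VRK1 and BCL11B.
LINC02914: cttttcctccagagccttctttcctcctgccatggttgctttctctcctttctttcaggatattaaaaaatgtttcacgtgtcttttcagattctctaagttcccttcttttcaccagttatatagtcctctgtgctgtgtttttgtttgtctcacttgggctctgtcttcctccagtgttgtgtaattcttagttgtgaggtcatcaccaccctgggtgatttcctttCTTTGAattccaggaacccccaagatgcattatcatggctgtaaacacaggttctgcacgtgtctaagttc
The window of LOC105370651 (chr14:97705885-97706184, plus strand, 40.3% G and C) lay in the same stretch, in a peak of 3850 bp with a pileup of 8.61.
LOC105370651: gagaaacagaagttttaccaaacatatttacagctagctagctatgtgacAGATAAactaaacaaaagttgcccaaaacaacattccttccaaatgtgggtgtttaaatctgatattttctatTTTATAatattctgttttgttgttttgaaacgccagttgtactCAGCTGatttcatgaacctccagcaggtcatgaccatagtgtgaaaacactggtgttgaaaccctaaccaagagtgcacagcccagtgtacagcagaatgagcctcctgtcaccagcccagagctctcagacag
The window of LOC105374243 (chr3:182182713-182183012, minus strand, 47.0% G and C) lay in a peak of 8094 bp between SOX2 and ATP11B.
LOC105374243: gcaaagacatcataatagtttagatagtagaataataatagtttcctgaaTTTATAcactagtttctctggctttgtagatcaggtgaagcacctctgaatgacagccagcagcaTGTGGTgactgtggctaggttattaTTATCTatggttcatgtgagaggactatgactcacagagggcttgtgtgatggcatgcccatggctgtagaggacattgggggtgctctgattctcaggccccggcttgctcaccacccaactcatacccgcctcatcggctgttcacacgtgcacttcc
The window of LINC02961 (chr1:234760007-234760306, minus strand, 55.3% G and C) lay in a peak of 2809 bp with a pileup of 14.35, between IRF2BP2 and TOMM20.
LINC02961: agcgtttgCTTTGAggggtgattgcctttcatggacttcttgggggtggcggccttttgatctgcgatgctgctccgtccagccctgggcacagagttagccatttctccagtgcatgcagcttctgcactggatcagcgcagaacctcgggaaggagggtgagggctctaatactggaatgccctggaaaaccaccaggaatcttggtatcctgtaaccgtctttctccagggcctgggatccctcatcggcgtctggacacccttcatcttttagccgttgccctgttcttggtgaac

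The promoter windows inside gene-desert peaks had fewer CpG than lncRNA windows with H3K4me3, and slightly more than other remote windows. Gene-desert peaks were chosen to overlap no H3K4me3, so part of the contrast with marked windows follows from the rule. Their median content of G and C was 47.0% over the 85 windows, against 42.7% over the 2879 other lncRNA windows that lay over 100 kb from protein-coding genes, and 66.3% over the 2006 lncRNA windows that overlapped H3K4me3. The median number of CpG dinucleotides per window was 3 in gene-desert peaks, 2 in the other remote windows and 27 in the windows with H3K4me3. Over all lncRNA windows the medians were 5 CpG and 50% G and C. AGATAA was in 22.4% of the windows in gene-desert peaks (interval 14.0 to 32.7), 21.2% of the other remote windows and 14.5% of all 12917 lncRNA windows. CAGCTG was in 23.5% of the windows in gene-desert peaks (15 to 34), 15.5% of the other remote windows and 17.8% of all lncRNA windows. TATAAA was in 14.1% of the windows in gene-desert peaks (7.51 to 23.4), 24.6% of the other remote windows and 15.1% of all lncRNA windows. CTTTGA was in 24.7% of the windows in gene-desert peaks (16 to 35.3), 21.0% of the other remote windows and 16.3% of all lncRNA windows. TGTGGT was in 16.5% of the windows in gene-desert peaks (9.31 to 26.1), 18.3% of the other remote windows and 16.2% of all lncRNA windows. CCGGAA was in 3.53% of the windows in gene-desert peaks (0.734 to 9.97), 4.52% of the other remote windows and 10.5% of all lncRNA windows. The interval in gene-desert peaks held the share of the other remote windows for 5 of the 6 motifs and lay below it for TATAAA. Some of the 85 windows shared bases, as where a gene had neighbouring starts, so they were not independent. These intervals are therefore too narrow.

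Gene-desert peaks overlapped 10 annotated microRNA genes, of which 7, in 5 peaks, had sequences in the RefSeq microRNA table. MIR29A (chr7:130876747-130876810, minus strand) and MIR29B1 (chr7:130877459-130877539, minus strand) lay together inside 1 peak of 3637 bp (chr7:130876286-130879922), with a pileup of 5.57 and a fold of 2.46. The peak lay 142 kb from KLF14 and 230 kb from MKLN1, and 32566 bp from the nearest H3K4me3 peak. The mature 3p products of both genes, as RefSeq lists them, share the seed, bases 2 to 8, shown in capitals.
hsa-miR-29a-3p: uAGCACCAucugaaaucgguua
hsa-miR-29b-3p: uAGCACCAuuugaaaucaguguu
MIR550A2 and MIR550B2, on opposite strands of the same bases of chromosome 7, lay in a peak with a pileup of 10.84 and a fold of 1.56. MIR550A3, elsewhere on chromosome 7, lay in a peak with a pileup of 4.89 and a fold of 1.68. Both folds were below the median of 2.39 over all gene-desert peaks. MIR4494 lay in a peak of 4323 bp between PCED1B and RPAP3, and MIR4437 in a peak of 2646 bp between UBE2E3 and ITGA4, the alpha chain of an integrin that lymphocytes use for homing.

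Gene-desert peaks were sparse for the length of sequence they could occupy. There were 9.21 gene-desert peaks per Mb over 586 Mb of desert sequence, against 21.2 per Mb in sequence outside genes but within 100 kb of one and 29.5 per Mb over protein-coding genes. The comparison peaks passed the same limits on length and H3K4me3 overlap, and set against all nearer sequence, at 26.2 per Mb, the ratio was 0.351. Gene-desert peaks covered 1.37% of desert bases. H3K4me3 was rarer still: 162 of 11100 H3K4me3 peaks (1.46%) lay past 100 kb, which was 0.277 per Mb of desert, against 1.46 per Mb in nearer sequence outside genes and 8.57 per Mb over genes. Sequence was counted in 1-Mb bins that held a peak of either mark, so unassembled stretches inside such bins remained in it. Bins without a peak were left out, which raises the densities. In gaps of over 200 kb between genes, sequence beyond 100 kb of both genes came to 970 Mb, unassembled stretches included. The desert density, the covered share and the ratio of 0.351 therefore hold for the counted bins only.

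**Figure D1:**
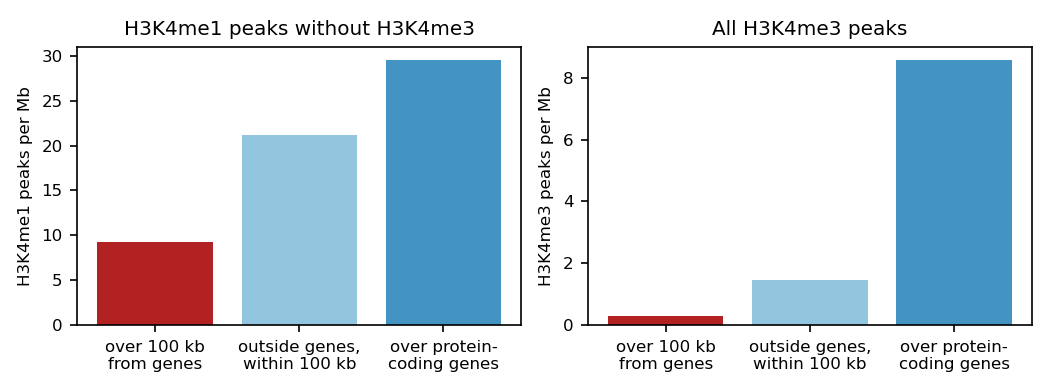
Peaks per Mb of sequence in 3 compartments, for H3K4me1 peaks under the length and H3K4me3 limits (left) and for all H3K4me3 peaks (right), each from 1 library, with no error bars. Only 1-Mb bins that held a peak of either mark were counted. Gene-desert sequence in them has 9.21 H3K4me1 peaks and 0.277 H3K4me3 peaks per Mb, the lowest bar in each panel.

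Many gene-desert peaks lay well past the 100 kb limit. Their median distance to the nearest protein-coding gene was 220 kb (quartiles 146 and 397 kb). Past 200 kb lay 2996 peaks (55.5%), past 500 kb 964 (17.9%) and past 1 Mb 256 (4.75%). The 5 farthest lay on the proximal part of chromosome 22, an acrocentric chromosome, at 3980 to 4585 kb from the olfactory receptor gene OR11H1, the first protein-coding gene there. Their pileup was 3.83 to 6.60 and their fold 1.87 to 3.11, and the farthest was chr22:10942376-10943573.

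Gene-desert peaks were about as long and as high as nearer ones. Pileup is the coverage signal that the authors' caller averaged over a peak, and need not be a raw count of fragments. It had a median of 6.46 in gene-desert peaks (quartiles 4.99 and 8.67), against 6.42 in the 49880 nearer peaks (4.99 and 8.65). The median length was 957.5 bp in gene-desert peaks (494 and 1863.5), against 970.5 bp in nearer peaks (511 and 1860). Nearer peaks outside genes were shorter, with a median of 898 bp, and those over genes longer, at 1010 bp. The median fold over the local background was 2.39 in gene-desert peaks and 2.37 in nearer peaks, and the median background itself was 1.89 in both. Peaks of at least 2000 bp made up 22.9% of gene-desert peaks and 22.8% of nearer ones. The quartile ranges of the groups thus lay nearly on top of each other. These scores are the caller's own and describe or rank peaks within this 1 list.

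Within chromosomes the medians also lay close. The ratio of the gene-desert median pileup to the nearer median pileup had a median over 24 chromosomes of 1.02 (0.874 to 1.14) and was above 1 on 13 of them. The ratio of median lengths had a median of 0.982 (0.665 to 1.14) and was above 1 on 11. The lowest length ratio was on chromosome 22, where gene-desert peaks had a median of 684 bp and nearer peaks of 1029 bp. Length did change with distance. Outside genes, the median was 787 bp up to 10 kb from a gene, 958.5 bp from 10 to 50 kb and 1020 bp from 50 to 100 kb. Past the limit it was 1033 bp from 100 to 200 kb, 946.5 bp from 200 to 500 kb and 825.5 bp beyond. The median pileup over the same 6 steps was 6.40, 6.36, 6.37, 6.43, 6.59 and 6.255, with no such course. Peaks just inside the limit, at 100.006 to 100.207 kb, had pileups of 3.50 to 8.56, and the 5 just outside it, at 99.959 to 99.982 kb, of 4.10 to 9.50.

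**Figure D2:**
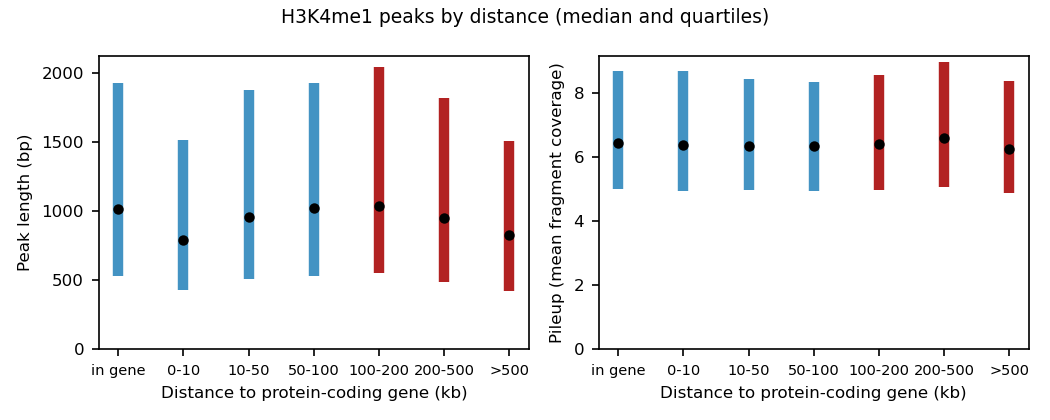
Length (left, bp) and pileup (right, the caller's mean coverage signal) of H3K4me1 peaks by distance to the nearest protein-coding gene. Gene-desert steps are in red and nearer steps in blue, with points showing medians and bars quartiles over peaks of 1 library. Median length is highest at 1033 bp from 100 to 200 kb and falls to 825.5 bp beyond 500 kb, while median pileup stays between 6.255 and 6.59.

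The strongest gene-desert peaks were short. The 5 with the highest pileup measured 295 to 672 bp and had pileups of 23.96 to 37.04. The highest of all gene-desert peaks was chr6:14540300-14540747, at 37.04 with a fold of 5.46, and a further one of the 5 was chr6:15086699-15087172, at 28.26. Both lay between CD83, a surface protein of activated lymphocytes and dendritic cells, and JARID2, a cofactor of Polycomb repressive complex 2. A peak at chr5:67465724-67466018, with a pileup of 28.04, lay between CD180 and PIK3R1, the regulatory subunit of phosphoinositide 3-kinase. A peak at chr8:133759301-133759972, with 24.68, lay between ST3GAL1 and ZFAT, and a peak at chr18:38941338-38941775, with 23.96, lay 1167 kb from LOC105372073 and 3013 kb from PIK3C3.

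Ranked by fold over background, the first 5 gene-desert peaks were other peaks, and 1 of them lay in the gap between CD83 and JARID2 as well. They had folds of 8.97 to 9.84 and pileups of 20.55 to 22.67. The first, chr13:104976087-104976546, had a fold of 9.84 and lay 489 kb from DAOA and 1910 kb from SLC10A2, a bile acid transporter. The next, chr12:93223606-93224257, with 9.59, lay between EEA1 and NUDT4, and chr3:35498867-35499223, with 9.56, lay 140 kb from ARPP21 and 1629 kb from PDCD6IP. The peak chr6:14357333-14358527, with 9.12, was the one between CD83 and JARID2. The peak chr3:18022452-18022769, with 8.97, lay between TBC1D5 and SATB1, a chromatin organiser of thymocytes, inside the lncRNA gene BALR6.

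Although sparse, gene-desert peaks lay in clusters. Of the 5394, 3878 (71.9%, interval 70.7 to 73.1) had another gene-desert peak within 12500 bp. The same measure was 78.4% among all nearer peaks, 65.0% among nearer peaks outside genes and 74.8% among peaks over genes, each set against its own class. Counting any H3K4me1 peak as a neighbour turned the order against nearer peaks outside genes: 73.4% of gene-desert peaks had one within 12500 bp, against 80.2% of nearer peaks outside genes and 82.5% of peaks over genes. The median gap to the next peak of the class was 4513 bp for gene-desert peaks and 3677 bp for nearer peaks. Joined across gaps of up to 12500 bp, gene-desert peaks formed 1036 clusters of at least 2 peaks, and 1516 peaks stood alone. The 228 clusters of at least 5 peaks held 1856 of them (34.4%), and 174 clusters had at least 10 kb covered by H3K4me1.

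Peaks in larger clusters were longer but not much higher. Single gene-desert peaks had a median length of 737 bp, peaks in clusters of 2 to 4 969.5 bp, in clusters of 5 to 9 1182 bp and in clusters of 10 or more 1262.5 bp. The median pileup over the same steps was 6.455, 6.43, 6.315 and 6.68. Cluster size and length are not independent measures, since long peaks leave shorter gaps.

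The cluster with the most bases in gene-desert peaks lay in the immunoglobulin heavy chain (IGH) locus at the end of chromosome 14. The annotation does not count the gene segments of IGH as protein-coding genes. This cluster held 38 peaks covering 74.7 kb of 266 kb (chr14:105969123-106235433), 439 kb past TMEM121, with a median pileup of 7.255. Covered lengths leave out peaks of 10000 bp or more and peaks over H3K4me3. Such peaks within 12500 bp numbered 1 here and 2 at the chromosome 10 cluster ranked next. A second IGH cluster of 26 peaks (chr14:106652535-106790954) covered 53.2 kb at a lower median pileup of 5.035. Of all gene-desert peaks, 90 overlapped an antigen receptor gene segment: 65 in IGH, 13 in the T cell receptor alpha locus TRA, 11 in the T cell receptor beta locus TRB and 1 in the immunoglobulin lambda locus IGL. The median length of these peaks was 1423 bp in IGH, 1395 bp in TRA and 2939 bp in TRB. No gene-desert peak overlapped a segment of IGK, TRD or TRG. The rule leaves out long peaks, peaks over H3K4me3 and peaks within 100 kb of a protein-coding gene. This absence therefore does not describe all H3K4me1 at these loci. Within 100 kb of a segment lay 176 gene-desert peaks, so that most of the 5394 were outside these loci.

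The clusters next by covered length lay on chromosomes 10, 6 and 3. A cluster of 24 peaks (chr10:8297750-8427549) covered 61.9 kb of 130 kb, starting 223 kb from GATA3, the zinc finger factor of early T cell development, with pileups of 3 to 19.49. A cluster of 25 peaks (chr6:14240087-14362603) covered 61.6 kb, with a median pileup of 8.62. Its nearest peak lay 103 kb from CD83, just past the 100 kb limit, so H3K4me1 closer to CD83 would not be counted. A cluster of 27 peaks (chr6:21768066-21904301) covered 51.6 kb inside the lncRNA gene CASC15, with a median pileup of 9.67. Beside SOX2, a factor of stem and neural cells, 18 peaks (chr3:182138097-182245507) covered 50.8 kb at a median pileup of 9.295, at 424 kb from SOX2 and 548 kb from the lipid flippase gene ATP11B.

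Further clusters among the 15 with the most bases in gene-desert peaks covered 34.2 to 49.7 kb. Between the corepressor gene IRF2BP2 and TOMM20, a mitochondrial import receptor, 21 peaks lay at chr1:234825264-234942177. Between LOC124907854 and PLGLB2, 17 peaks lay at chr2:87453992-87549741. Between KLF6, a zinc finger factor, and AKR1E2, 17 peaks lay at chr10:3891936-3992920. Between S1PR1, the sphingosine 1-phosphate receptor that lets T cells leave the thymus, and OLFM3, 20 peaks lay at chr1:101344723-101454713.

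The last of these 15 clusters lay beside further regulators. Between OLIG3 and TNFAIP3, a brake on NF-kappa-B signalling, 13 peaks (chr6:137697544-137764415) covered 61.6% of their stretch. Between the Groucho-type corepressor gene TLE3 and UACA lay 26 peaks (chr15:70280885-70420868). Between TBC1D5 and SATB1 lay 11 peaks (chr3:17963611-18027337) with a median pileup of 11.9 and a median fold of 4.55, the highest of the 15 clusters on both scores. Between KLF14 and MKLN1 lay 16 peaks (chr7:130935143-131001197), in the lncRNA gene LINC-PINT.

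Gene-desert peaks were far from H3K4me3. Their median distance to the nearest H3K4me3 peak was 221 kb, against 29.6 kb for nearer peaks outside genes and 25.1 kb for peaks over genes. Within 10 kb of H3K4me3 lay 213 gene-desert peaks (3.95%), against 30.2% of nearer peaks outside genes and 33.6% of peaks over genes. H3K4me3 lies mostly at gene ends, so part of this distance follows from the rule that chose the peaks.

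The peaks were unevenly spread over the gaps between neighbouring protein-coding genes. Of 1671 gaps of more than 200 kb, 999 held no gene-desert peak and 672 held at least 1. Gaps just over 200 kb have almost no sequence beyond 100 kb of both genes, so part of the 999 had little room for a peak. Gaps with at least 0.1 Mb of such sequence are described below. The 83 gaps with at least 20 held 2818 peaks (52.2%). The 50 gaps with the most held 1988 peaks (36.9%), in 6.28% of the gap sequence beyond 100 kb of a gene. Both sets of gaps were picked by their counts, so part of this excess follows from the choice. Unassembled sequence such as centromeres was not taken out of gap lengths.

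Gaps next to genes with H3K4me3 held more gene-desert peaks. A gene was counted as carrying the mark if an H3K4me3 peak lay over its span or within 1 kb of it. Among gaps with at least 0.1 Mb beyond 100 kb of both genes, the 471 gaps with 0 marked flanking genes had 2.49 peaks per Mb, the 516 with 1 had 6.27 per Mb and the 164 with 2 had 14.1 per Mb. A gene-desert peak was in 36.9% of gaps with 0 marked flanking genes, 52.5% with 1 and 71.3% with 2. The median gap had 0, 0.560 and 8.35 peaks per Mb in the same order. The order held in each class of gap length: 3.41, 10.9 and 21.8 per Mb under 1 Mb, 2.25, 5.89 and 9.69 from 1 to 2 Mb, and 1.56, 2.17 and 6.58 in longer gaps, where 10 gaps had 2 marked genes. In those longer gaps the medians were 0.865, 0.538 and 4.16 per Mb, so 0 and 1 marked genes stood in the other order there. Gaps, not libraries, are counted here, and local sequence properties of the gaps were not measured.

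**Figure D3:**
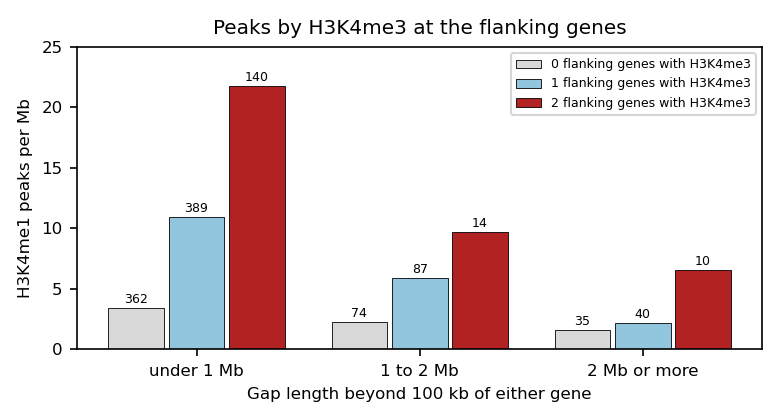
Gene-desert H3K4me1 peaks per Mb of gap sequence beyond 100 kb of either gene, by the length of that sequence (groups of bars) and by how many of the flanking protein-coding genes carried H3K4me3 (grey 0, blue 1, red 2), with the number of gaps above each bar and no error bars since each value is from 1 library. In each length class the red bar is highest, from 21.8 per Mb under 1 Mb to 6.58 per Mb in the longest gaps.

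The gap with the most gene-desert peaks was the one beyond MYC, the transcription factor that drives growth and division, on chromosome 8. It held 123 peaks covering 215 kb between MYC and GSDMC, a pore-forming gasdermin, in a gap of 1.96 Mb. Of these peaks, 15 lay within 500 kb of MYC and 75 more than 1 Mb away, with a median distance of 1192 kb. Pileups ran from 3.31 to 18.2 with a median of 6.56, and the median fold was 2.21. The median input-derived background of these peaks was 2.25, against 1.89 over all gene-desert peaks, a difference whose part in the count was not tested. Clusters ran through the lncRNA genes PVT1, LINC00824, LINC00976, LINC00977 and CCDC26, the largest with 14 peaks over 78.5 kb at 1189 kb from MYC. On the other side of MYC, the gap to POU5F1B held 0.

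The stretch past TMEM121, which contains IGH, held 118 gene-desert peaks with a median pileup of 6.39. Next came the gap between CD83 and JARID2, with 91 peaks covering 170 kb. At 100.1 peaks per Mb it was denser than the MYC gap, at 69.8 per Mb, and its median pileup of 9.23 was the highest of the 10 gaps with the most peaks. Both flanking genes carried H3K4me3.

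The gap between VRK1, a nuclear kinase, and BCL11B, the zinc finger factor that commits cells to the T lineage, held 84 peaks covering 113 kb of 2.29 Mb. The distances from BCL11B ran from 113 to 2182 kb with a median of 858 kb, and 25 peaks lay within 500 kb of it and 35 more than 1 Mb away. The tallest, with a pileup of 14.78, was in a cluster of 5 peaks (chr14:98222131-98250251), 919 kb from BCL11B. LINC02914 and LOC105370651, whose promoter windows are printed above, lie in this gap.

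The gap between GATA3 and CELF2, an RNA-binding splicing factor, held 66 peaks covering 119 kb of 2.39 Mb. They lay closer to GATA3 than those of the preceding gap to BCL11B: 45 were within 500 kb and 8 more than 1 Mb away, with a median of 321 kb. The tallest had a pileup of 19.49.

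The other 5 of the 10 gaps with the most peaks lay beside genes of varied function. On chromosome 20, 58 peaks lay between ZNF337 and LOC124904970, in a gap of 5.12 Mb that spans the centromere, at 11.8 peaks per Mb. On chromosome 2, 58 peaks lay between HS6ST1, a heparan sulfate sulfotransferase, and RAB6C, with the lowest median pileup of the 10 gaps at 5.095. On chromosome 3, 57 peaks lay between TBL1XR1, a subunit of a nuclear corepressor complex, and the potassium channel gene KCNMB2. On chromosome 6, 54 peaks lay between LOC124901483 and the hormone gene PRL, in a gap of 0.621 Mb, and its 128 peaks per Mb were the densest of the 10, leaving aside the stretch past TMEM121, which has no gene at its far end. On chromosome 2 again, 49 peaks lay between LPIN1, a lipid phosphatase, and TRIB2, a pseudokinase known to cause myeloid leukaemia in mice when overexpressed.

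**Figure D4:**
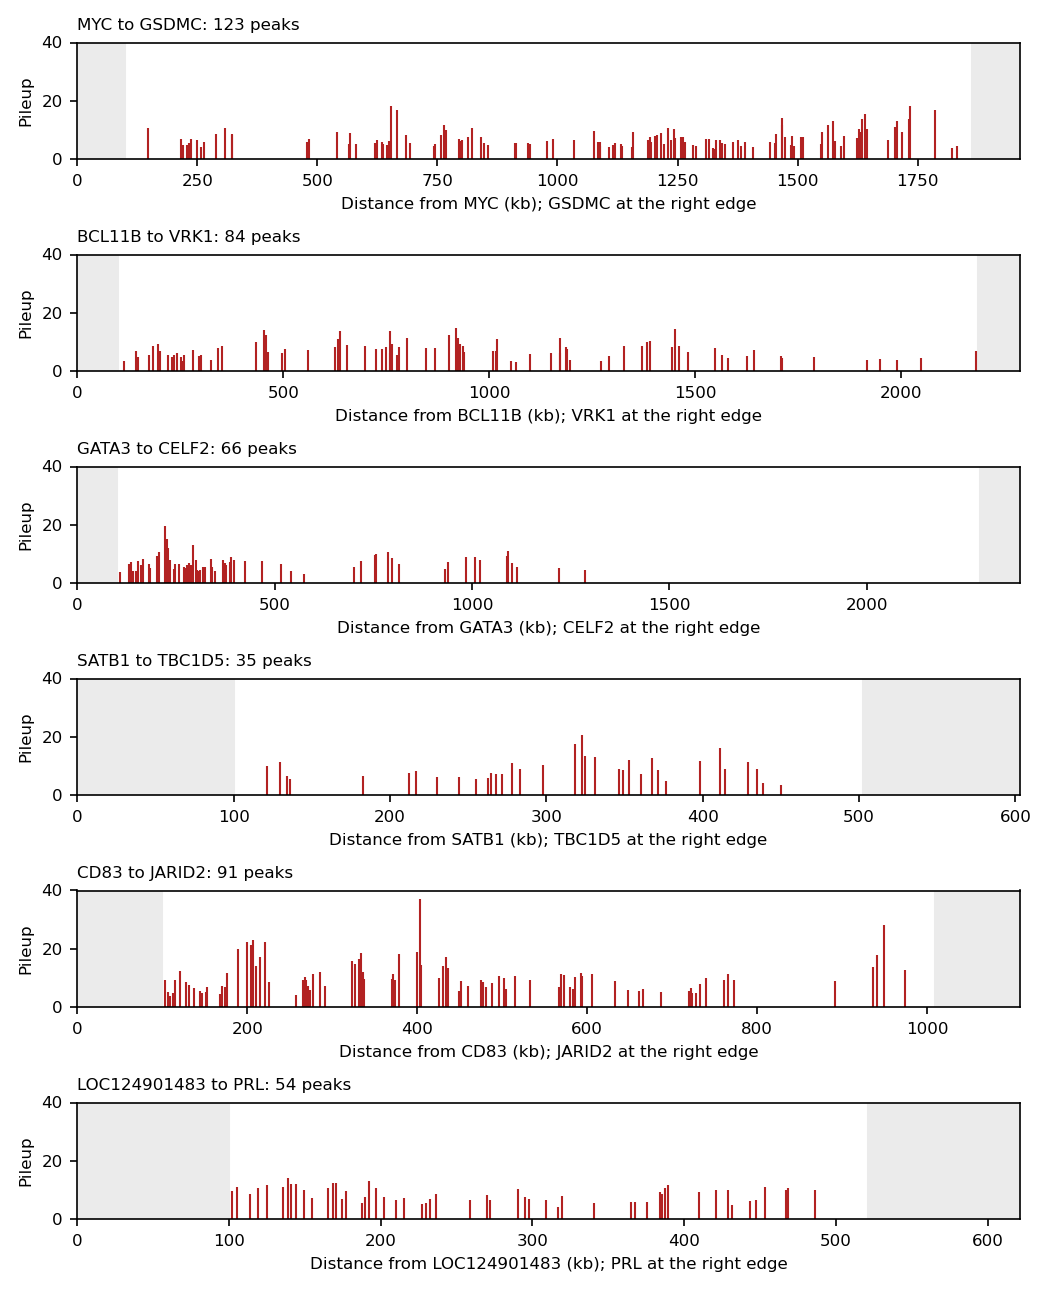
Pileup (the caller's mean coverage signal, vertical axis) of each gene-desert H3K4me1 peak against its distance in kb from the first gene named, in 6 gaps. Each red line is 1 peak of the H3K4me1 library, and grey areas lie within 100 kb of a gene, where no peak could qualify. Peaks of the GATA3 gap crowd within 500 kb of GATA3 (45 of 66), those of the MYC gap lie mostly beyond 1 Mb (75 of 123), and the tallest line, 37.04, is between CD83 and JARID2.

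Beside other regulators of T cells the counts were smaller. SATB1 had 35 gene-desert peaks on its lower-coordinate side, at 86.9 per Mb and with pileups of 3.49 to 20.55, and 14 on its higher-coordinate side, at 27.8 per Mb. ID2, an inhibitor of E proteins, had 29, all within 451 kb of it. TOX, a factor of thymocyte selection, had 24, with a median distance of 300.4 kb. RUNX1, the core-binding factor of blood development, had 20, ETS1 had 19 and the chemokine receptor gene CXCR4 also had 19. The nearest of these lay 107 kb from CXCR4, and the rule admits none within 100 kb. IKZF2 had 6, with a median pileup of 10.0, and SOX4 had 3, at 8.97 to 10.91, on its lower-coordinate side. On its other side, the gap from SOX4 to LOC124901483 was 0.066 Mb, too short for a gene-desert peak. The 54 peaks between LOC124901483 and PRL were therefore not counted for SOX4.

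Other loci in the same list had none. MYB, IKZF1, TLX1, CD1A and the measured side of LEF1 had 0 gene-desert peaks. At each of them the gaps to the neighbouring genes were at most 0.144 Mb, too short for a peak to lie 100 kb from both neighbours. For these genes the count therefore says nothing about their H3K4me1.

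Taking all protein-coding genes, 6.27% were the nearest gene on a side of at least 1 gene-desert peak, and 43.7% of genes beside a gap of over 200 kb were. Of 60 T-lineage genes, 15 (25%, interval 14.7 to 37.9) flanked a gene-desert peak. Set against genes with at least some room for one, 15 of the 16 T-lineage genes beside such a gap did so, with THY1 as the exception. The largest counts were at BCL11B with 84 peaks, GATA3 with 66, SATB1 with 49, PTPRC with 44, ID2 with 29 and S1PR1 with 24. PTPRC encodes CD45, the phosphatase that sets the threshold of T cell receptor signalling. Its peaks had a median pileup of 6.565, and the nearest lay 104 kb away, just past the 100 kb limit of the rule. Being nearest on a side says nothing of which gene a peak acts on.

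The other gene lists were counted in the same manner, and no test between lists was made. Of 23 T-ALL transcription factor oncogenes 4 flanked a gene-desert peak: MYC with 123, LMO3 with 2, and OLIG2 and ZEB2 with 1 each. They were 4 of the 6 listed oncogenes beside a gap of over 200 kb, and MEF2C and MYCN lay beside one with no such peak. Of 30 kinase and cytokine signalling genes 4 did, out of 5 beside a gap of over 200 kb, and among them PIK3R1 had 53 peaks, DUSP6, a phosphatase that acts on ERK, 28 and SPRY1 8. KIT lay beside such a gap with none.

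Genes of other lineages were flanked too. Of 16 B-lineage genes 2 were, EBF1 with 2 peaks and VPREB1 with 1, and of 18 myeloid genes 3 were, CEBPB with 9, IRF8 with 2 and CSF3R with 1. These were both of the 2 B-lineage genes and all of the 3 myeloid genes that lay beside a gap of over 200 kb. Of 20 neuronal genes 9 (45.0%, interval 23.1 to 68.5) flanked a gene-desert peak, out of 17 beside a gap of over 200 kb. SOX2 led these with 39 peaks, followed by NCAM2 with 13, DLX2 with 12, SYT1 with 10, GRIN2B with 5 and CDH8 with 2. Summed over their genes, the lists had 397 peaks for the 60 T-lineage genes, 127 for the 23 T-ALL oncogenes and 93 for the 30 signalling genes. The 20 neuronal genes had 84, the 18 myeloid genes 12 and the 16 B-lineage genes 3. These sums were not scaled by the number or gap length of the listed genes. Of the 127 for T-ALL oncogenes, 123 were in the MYC gap, where 47 were nearest to MYC and 76 nearest to GSDMC.

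LncRNA genes lay under many gene-desert peaks. Of the 5394, 1799 (33.4%, interval 32.1 to 34.6) overlapped a lncRNA gene, against 25.9% of nearer peaks outside genes and 7.35% of peaks over protein-coding genes. In the 1-Mb bins that held a peak of either mark, lncRNA spans made up 25.4% of desert bases and 20.7% of nearer bases outside genes. Per Mb of desert in those bins there were 12.1 gene-desert peaks inside lncRNA spans and 8.22 outside them, a ratio of 1.47. Gene-desert peaks in lncRNA genes were longer, with a median of 1087 bp against 908 bp for the others, and their median pileup was 6.68 against 6.35. The quartile ranges of these groups overlapped widely, from 534 to 2138 bp in lncRNA genes and from 482 to 1717.5 bp outside them.

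The overlapped lncRNA genes numbered 666, or 3.7% of all 18010. Of these, 344 had 1 gene-desert peak and 35 had at least 10. CASC15, a long gene beside SOX4 on chromosome 6, had 54, which covered 22.8% of its 529 kb, with a median pileup of 8.675. MIR3681HG, between LPIN1 and TRIB2, had 42 peaks, and DLEU1, in the chromosome 13 stretch often deleted in leukaemia, had 37. LINC00578, beside TBL1XR1, had 34, and BALR6, beside SATB1, had 28 with a median pileup of 8.44.

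The remaining genes among the first 10 had 20 to 25 gene-desert peaks each. LOC105373611, beside HS6ST1, had 25 and the highest share of the 10 covered by gene-desert peaks, at 27.9%. Peaks left out for length or H3K4me3 overlap are not in these shares, and numbered 3 in LOC105373611 and 9 in CASC15. CFAP20DC-DT, beside the fragile-site gene FHIT, had 23 over 724 kb. LOC105376387, between PRKCQ, the protein kinase C of the T cell synapse, and SFMBT2, had 22. NCAL1 had 21, and LINC-PINT, a transcript known to be induced by p53, had 20. H3K4me3 peaks lay in the spans of 5 of the 10, with 7 in DLEU1, 3 each in CASC15 and LINC-PINT and 1 each in CFAP20DC-DT and NCAL1, and the spans of the other 5 held 0.

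**Figure D5:**
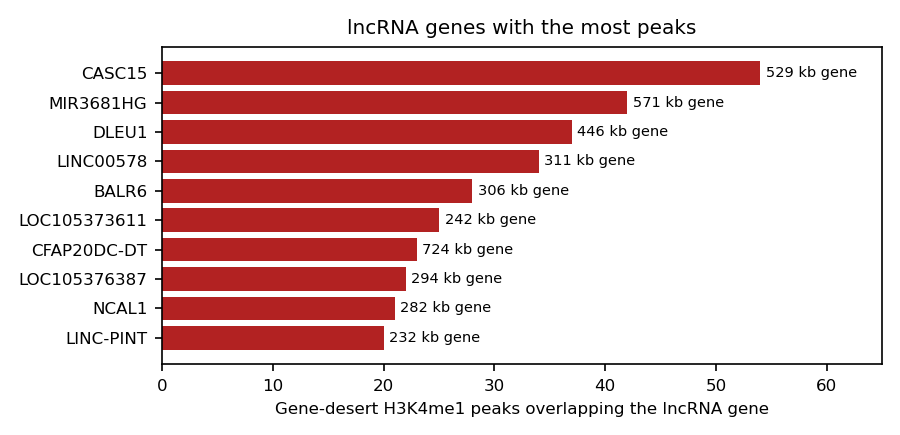
Number of gene-desert H3K4me1 peaks that overlap each of the 10 lncRNA genes with the most, with the gene's length in kb beside each bar, from 1 H3K4me1 library. Longer genes can hold more peaks by their length, and CASC15 leads with 54 peaks over 529 kb.

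Of 28 lncRNA genes listed for their links to blood cells or leukaemia, 10 were overlapped by a gene-desert peak, against 3.7% of all 18010 lncRNA genes. The listed genes were not matched to the others by length or by distance from protein-coding genes, and no test was made. CASC15 and LINC-PINT were among the 10, as were LINC01934 with 18 peaks and CCDC26 with 15. PVT1, the neighbour of MYC, had 13, MIR181A1HG, host of a microRNA that tunes T cell receptor sensitivity, had 12 and LINC00299, beside ID2, had 11. MIR222HG had 5, CCAT1 2 and LINC00861 1. The other 18 had 0, among them GATA3-AS1 and LEF1-AS1, which adjoin the protein-coding genes they are named for.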

How the data were processed

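ChIP-seq was carried out for H3K4me1, H3K4me3 and input DNA in ALL-SIL, with 1 library each, grouped by sample title. MACS2 2.1.0.20150731 called broad peaks against the input, with q of 0.1 for broad and 0.05 for strong regions, per the file headers. Coordinates are GRCh38, per the submitters' processing notes, and the alignment paths name STAR, per the file headers, with its version not given in the sources used here. In the deposited tables each peak has a pileup, a coverage signal averaged over the peak. They also give the fold, a ratio over the local background, and −log10 p and q, as the authors' caller wrote them.

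Background was computed here as (pileup + 1)/fold - 1. Genes came from RefSeq GRCh38.p14, as spans, and 171 protein-coding genes with scaffold positions were left out. Distances, overlaps of 1 bp, clusters and gaps were computed in Python 3.11.15 with pandas 2.3.3, numpy 2.4.6 and scipy 1.17.1, and checked on simulated data with known answers. No test was made, since peaks of 1 library are not replicates. The peaks, gene lists and comparisons were chosen with earlier results of these data known. Named by rule were the 15 clusters with the most bases in gene-desert peaks, and the 10 lncRNA genes and 10 gaps with the most peaks. Also named were the 5 peaks farthest from genes, of highest pileup and of highest fold. Peaks at the limit, up to 6 genes per list and fixed T cell loci were named too. Alternatives were other distance limits, stitching gaps, peak strengths, gene sets and overlap rules, and leaving out chromosome 8. The input has no peak list of its own. A few results that these rules would name are not reported here.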

Additional observations from a re-analysis of the deposited data

Results flagged for a closer look

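Outside the main chromosomes, 68 H3K4me1 peaks lay on unplaced or alternate scaffolds and entered no comparison, since gene spans there could not be set against them.

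Gene-desert peaks on chromosome 8 had a higher input-derived background than those on other autosomes, with medians of 2.37 and 1.89, a ratio of 1.25. Their median pileup was 7.41 on chromosome 8 and 6.56 on the other autosomes, and their median fold 2.35 and 2.42.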

How the results depend on the processing

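Of 76 values under 13 alternatives, 54 stayed within the limits set for them, 22 moved and 0 reversed. Only the ratio of peaks per Mb could count as reversed, since the intervals of the length and pileup ratios held 1. The length ratio, 0.987 as reported, did pass 1, to 1.01, with a distance limit of 50 kb. The pileup ratio, 1.006 as reported, fell below 1 with lncRNA genes counted as genes. With a distance limit of 50 kb there were 8151 peaks, 1561 clusters of at least 2 peaks and a ratio of peaks per Mb of 0.381, against 5394, 1036 and 0.351 as reported. With 200 kb there were 2996 peaks and 572 clusters. The median length was then 906 bp, its ratio to nearer peaks 0.930 and the ratio of peaks per Mb 0.309, and 68.8% of peaks had a neighbour within 12500 bp and 31.2% overlapped a lncRNA gene. Among H3K4me1 peaks of above-median −log10 q there were 2728 peaks and 542 clusters, with a median length of 1019.5 bp and a median pileup of 8.465. There, 60.7% had a neighbour and 35.3% overlapped a lncRNA gene. With lncRNA genes counted as genes, 914 peaks remained past 100 kb, and the ratios to nearer peaks were 0.827 for length and 0.955 for pileup. The neighbour share was 52.7% within 5 kb and 81.5% within 25 kb. Asking for 50% of the peak inside the lncRNA gene gave 32.1%. The cause of these shifts was not tested, beyond the smaller or larger numbers of peaks that the limits themselves set. Leaving out chromosome Y and adding the genes with scaffold positions were chosen after seeing the data.

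No paired analysis was possible because each mark has 1 library. The list holds called peaks only, so H3K4me1 below the caller's threshold at this depth was not detectable. Stretches that reads cannot be placed in, which are frequent near centromeres, were not measured, and neither were unassembled stretches. Nearest genes and lncRNA spans depend on the RefSeq annotation used.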

Other observations

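Gene-desert peaks took up different shares of the H3K4me1 peaks of each chromosome. The share was largest on chromosome Y, at 67.3% (66 peaks). They made up 14.6% of the peaks on chromosome 14 (340), 13.4% on chromosome 4 (368), 12.4% on chromosome 20 (216), 12.3% on chromosome 8 (375) and 12.2% on chromosome 3 (520). On the gene-rich chromosomes 19 and 17 they made up 1.58% (36) and 1.85% (57). On chromosome X the share was 16.6% (236), with a median pileup of 4.725 in gene-desert peaks and 4.79 in nearer peaks, the lowest of the chromosomes other than Y on both counts. The median background of gene-desert peaks on X was 1.41 and on chromosome 19 it was 3.37, the lowest and highest outside Y. The lowest background of any gene-desert peak was 1.40, so the median on X lay at the floor of this measure.

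Apart from lncRNA and microRNA genes, gene-desert peaks overlapped 60 V segments of antigen receptor loci, 35 V segment pseudogenes and 56 other pseudogenes. Another 31 overlapped genes were transcribed pseudogenes. Of the 5394 peaks, 914 (16.9%) lay more than 100 kb from any lncRNA gene as well as from any protein-coding gene.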
